A study of Mus musculus with 3 samples.

Results

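Basophils and mast cells are rare granulocytes of the marrow and tissues that store proteases and histamine in granules and carry a receptor for IgE on their surface. The 7 genes described here encode products of these cells and were taken by name from the deposited tables, where each had 1 entry among 11419 genes. They were Mcpt8, Prss34 and Cpa3 (granule proteases), Ms4a2 (a chain of the IgE receptor), Hdc (histidine decarboxylase, which makes histamine), Cyp11a1 (the first enzyme of steroid synthesis) and Gata2 (a transcription factor). The set had been chosen with the levels in the libraries known, namely that replicate 1 was higher than the others for most of the genes and not for Hdc. The difference between the libraries is therefore given as a description, with no test.

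The study sequenced messenger RNA of 1 myeloid population from the tibiae and femurs of C57BL/6 mice, an inbred strain, in 3 libraries called replicates 1, 2 and 3. The sort kept CX3CR1-negative cells that carried CD11b, F4/80 and CD169, which the design text calls macrophages, in quotation marks. No treatment, second population or control was part of the design, and the sources used here give neither age nor sex. The design text gives n = 3 for the mice without tying a library to a mouse, so a p-value over the libraries reflects their spread alone, and that spread may be technical.

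In mouse basophils the granule holds Mcpt8, a serine protease that serves as a basophil marker, and Prss34, a tryptase-like serine protease. Cpa3, a carboxypeptidase, and Ms4a2 are shared by basophils and mast cells. IgE bound to the receptor, once cross-linked by antigen, signals through Lyn, Syk and phospholipase C and empties the granules. Hdc is made by basophils and mast cells and also by immature myeloid cells of the marrow, while Gata2 is a transcription factor of early haematopoietic progenitors that basophils and mast cells keep.

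The libraries differed in depth, and replicate 1 stood apart from the others. Values are CPM, the reads of a gene per 1000000 reads assigned to the listed genes. Replicate 1 held 5150020 assigned reads, replicate 2 held 40149274 and replicate 3 held 37604930. The Pearson correlation of log2(CPM + 1) over genes, which are not independent replicates, was 0.971 between replicates 1 and 2, 0.956 between replicates 1 and 3 and 0.978 between replicates 2 and 3. In CPM, Malat1, a nuclear non-coding RNA, was at 419.6 CPM in replicate 1 against 70.0 and 94.5 CPM in replicates 2 and 3, and n-R5-8s1, a ribosomal RNA gene, was at 123.5 CPM there against 8.44 and 2.95 CPM. The part of depth and RNA composition in the values below was not tested. Of the genes of the gate, Itgam (CD11b) was at 483, 460.3 and 565 CPM and Adgre1 (F4/80) at 18.6, 26.5 and 21.4 CPM. Siglec1 (CD169), the sialic acid receptor used in the gate, was at 0.388, 3.66 and 4.57 CPM in replicates 1, 2 and 3. It had 2 reads in replicate 1 and 147 and 172 reads in the deeper replicates 2 and 3.

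The promoters of 5 of the genes are shown, the 4 that were higher in replicate 1 with like levels in replicates 2 and 3, and Hdc, which was not higher there. Each is the 250 bases before the RefSeq transcript start, 5′ to 3′ on the gene's strand, from RefSeq sequence of build GRCm38.p6, and all 7 genes matched an entry by symbol. For Mcpt8 and Hdc the RefSeq start lies inside the gene as GENCODE draws it. The windows lie at chr14:56085198-56085447, minus strand (Mcpt8), chr17:25298144-25298393, plus strand (Prss34), chr3:20242182-20242431, minus strand (Cpa3), chr19:11623720-11623969, minus strand (Ms4a2) and chr2:126618679-126618928, minus strand (Hdc). Capitals mark GATA motifs, the binding letters of Gata2 and its relatives. The letters searched were AGATAA or TGATAA or AGATAG or TGATAG, and for the other strand TTATCT or TTATCA or CTATCT or CTATCA.
Mcpt8: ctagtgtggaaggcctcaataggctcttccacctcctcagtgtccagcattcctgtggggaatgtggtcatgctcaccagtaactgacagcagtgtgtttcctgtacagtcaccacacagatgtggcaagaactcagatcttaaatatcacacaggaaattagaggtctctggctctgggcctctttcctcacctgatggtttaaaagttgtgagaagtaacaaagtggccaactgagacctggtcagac
Prss34: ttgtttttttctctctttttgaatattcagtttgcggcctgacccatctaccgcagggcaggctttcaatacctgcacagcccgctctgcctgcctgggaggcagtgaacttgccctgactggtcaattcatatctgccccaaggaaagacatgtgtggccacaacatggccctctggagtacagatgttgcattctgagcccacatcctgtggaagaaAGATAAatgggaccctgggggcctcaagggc
Cpa3: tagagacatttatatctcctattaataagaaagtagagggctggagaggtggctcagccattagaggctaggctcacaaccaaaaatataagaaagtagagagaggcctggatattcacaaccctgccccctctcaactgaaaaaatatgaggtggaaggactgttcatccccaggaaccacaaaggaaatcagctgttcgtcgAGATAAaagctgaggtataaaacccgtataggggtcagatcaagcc
Ms4a2: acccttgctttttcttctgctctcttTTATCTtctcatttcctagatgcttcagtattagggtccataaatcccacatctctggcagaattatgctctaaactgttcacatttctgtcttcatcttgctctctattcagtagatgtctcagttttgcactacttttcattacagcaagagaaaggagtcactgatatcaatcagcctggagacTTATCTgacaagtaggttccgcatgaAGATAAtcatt
Hdc: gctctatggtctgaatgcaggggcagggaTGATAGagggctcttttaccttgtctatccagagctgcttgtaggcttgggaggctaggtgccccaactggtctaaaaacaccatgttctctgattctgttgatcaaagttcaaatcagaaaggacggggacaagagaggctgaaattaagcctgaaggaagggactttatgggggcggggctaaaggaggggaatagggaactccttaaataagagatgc

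Prss34 held AGATAA from 31 to 26 bases before its start and Cpa3 held AGATAA from 46 to 41 bases before its start. Ms4a2 held 3 matches, AGATAA from 11 to 6 bases before the start and TTATCT from 37 to 32 and from 224 to 219 bases before it. Hdc held TGATAG from 221 to 216 bases before its start, and Mcpt8 held no match in this window. Among all 32851 windows of this length in the table, 26.5% held at least 1 match and 6.40% held 2 or more. Of the remaining members, Gata2 had no match in either of its windows and Cyp11a1 had AGATAG in 1 of 2 windows. That Cyp11a1 window (chr9:58014702-58014951) lies inside the gene as GENCODE draws it, as does 1 Gata2 window (chr6:88198414-88198663). The other Cyp11a1 window (chr9:57997774-57998023) ends well before the GENCODE start at 58006411.

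Of the 7 genes, 6 were at least 2-fold higher in replicate 1 than in both other libraries, and Hdc was not. None of the 7 was at least 2-fold lower there, where 5.57% of all tested genes were. Over all 11123 genes with at least 10 reads in the libraries together, 3.42% met the same rule, and of the 7219 genes at 10 CPM or more in replicate 1, 0.9% did. Since the set was chosen on this difference, nothing is read from the comparison with these shares. Together the 6 genes took 978 CPM in replicate 1, 137 CPM in replicate 2 and 138 CPM in replicate 3, a level 7.12-fold higher in replicate 1 than the mean of the others. In bulk RNA, more cells of a type and more RNA per cell cannot be told apart.

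**Figure D1:**
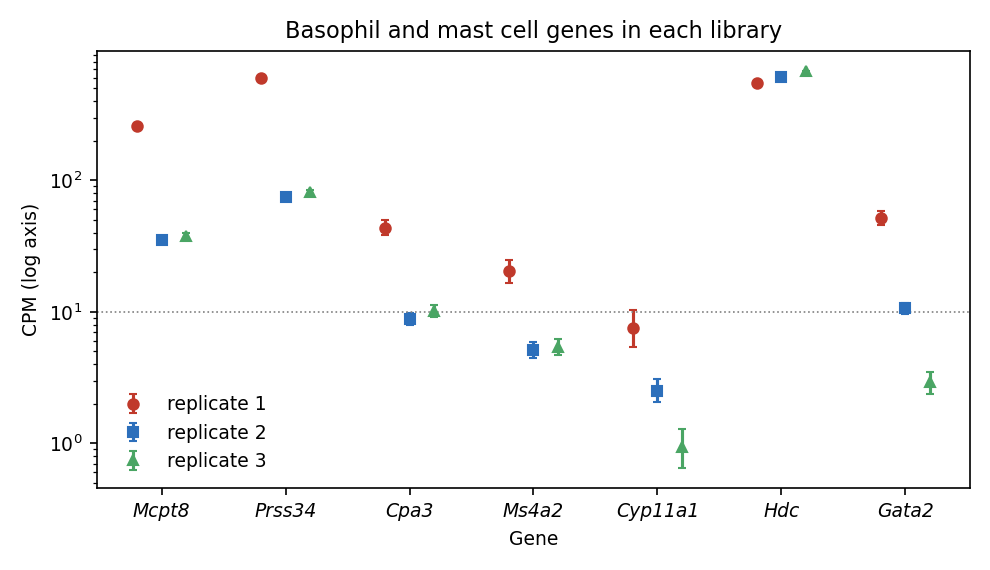
CPM of the 7 genes (log axis) in each library, as points with exact (Clopper-Pearson) 95% intervals of the read share, which cover counting error only. The dotted line marks 10 CPM. Replicate 1 lies above both other libraries for 6 genes and below them for Hdc, and the intervals of replicates 2 and 3 lie apart for Prss34, Cyp11a1, Hdc and Gata2.

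The serine proteases of basophil granules had the highest levels of the 6, in CPM and per exon length. Prss34 (ENSMUSG00000056399, GRCm38 chromosome 17, 25298394 to 25300165, plus strand) was at 596 CPM in replicate 1 (3069 reads), 74.5 CPM in replicate 2 (2992 reads) and 81.2 CPM in replicate 3 (3053 reads). The exact 95% interval was 575 to 617 CPM in replicate 1, far from the 71.9 to 77.2 and 78.3 to 84.1 CPM of the others. Replicate 3 was 1.09-fold above replicate 2. Prss34 was thus 8.0-fold and 7.34-fold higher in replicate 1 than in replicates 2 and 3, a difference of 2.92 on the log2(CPM + 1) scale, rank 10 of the 11123 genes.

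Mcpt8 (ENSMUSG00000022157, chromosome 14, 56082166 to 56085273, minus strand) was at 259 CPM in replicate 1 (1334 reads, exact 95% interval 245 to 273 CPM). It was at 35.4 CPM in replicate 2 (33.6 to 37.3 CPM) and 37.4 CPM in replicate 3 (35.5 to 39.4 CPM). Replicates 2 and 3 overlapped in their intervals, and replicate 1 was 7.31-fold and 6.92-fold above them. The ratio of Prss34 to Mcpt8 in CPM was nearly the same in every library, at 2.30, 2.10 and 2.17 in replicates 1, 2 and 3.

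Cpa3 (ENSMUSG00000001865, chromosome 3, 20215620 to 20242181, minus strand) was at 43.7 CPM in replicate 1, 8.77 CPM in replicate 2 and 10.1 CPM in replicate 3. Replicate 1 again lay above both others, by 4.98-fold and 4.32-fold, while replicates 2 and 3 had overlapping intervals (7.88 to 9.73 and 9.11 to 11.2 CPM). The margin was smaller than that of the serine proteases: Mcpt8 exceeded Cpa3 in CPM by 5.93-fold in replicate 1 and by 4.04-fold and 3.70-fold in replicates 2 and 3. A microRNA gene, Mir7007, lies on the same strand within Cpa3, and another, Mir6949, within Mcpt8.

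Ms4a2 (ENSMUSG00000024680, chromosome 19, 11615523 to 11623719, minus strand) encodes the beta chain of the IgE receptor. It was at 20.4 CPM in replicate 1 (105 reads), 5.13 CPM in replicate 2 (206 reads) and 5.40 CPM in replicate 3 (203 reads). Replicate 1 was 3.97-fold and 3.78-fold above the others, whose intervals overlapped.

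Cyp11a1 and Gata2 were also highest in replicate 1, but replicates 2 and 3 differed from each other too. Cyp11a1 (ENSMUSG00000032323, chromosome 9, 58006411 to 58027023, plus strand), a mitochondrial enzyme that turns cholesterol into pregnenolone, was the lowest of the 7 genes, also per exon length. Its level was 7.57 CPM in replicate 1 (39 reads, exact 95% interval 5.38 to 10.3 CPM), 2.52 CPM in replicate 2 (101 reads, 2.05 to 3.06 CPM) and 0.931 CPM in replicate 3 (35 reads, 0.648 to 1.29 CPM). No interval overlapped another, and replicate 2 was 2.70-fold above replicate 3. A non-coding gene, Gm17322, overlaps Cyp11a1 on the same strand, so reads of the pair may not have been told apart.

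Gata2 (ENSMUSG00000015053, chromosome 6, 88193891 to 88207032, plus strand) was at 51.7 CPM in replicate 1 (266 reads), 10.7 CPM in replicate 2 (429 reads) and 2.90 CPM in replicate 3 (109 reads). The intervals were 45.6 to 58.2, 9.70 to 11.8 and 2.38 to 3.50 CPM, so all 3 libraries stood apart beyond counting error. Replicate 1 was 4.83-fold above replicate 2 and 17.8-fold above replicate 3, and replicate 2 was 3.69-fold above replicate 3. The ratio of Mcpt8 to Gata2 in CPM accordingly varied, at 5.02, 3.31 and 12.9 in replicates 1, 2 and 3, whereas that of Mcpt8 to Ms4a2 was 12.7, 6.90 and 6.93.

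Hdc (ENSMUSG00000027360, chromosome 2, 126593667 to 126619299, minus strand) had a different pattern. It was at 552 CPM in replicate 1 (2841 reads, exact 95% interval 532 to 572 CPM), 609 CPM in replicate 2 (24439 reads, 601 to 616 CPM) and 675 CPM in replicate 3 (25383 reads, 667 to 683 CPM). Replicate 1 was thus the lowest library for Hdc, at 0.906 and 0.817 of replicates 2 and 3. The coefficient of variation over the libraries was 10.1% for Hdc and ranged from 84.7% (Ms4a2) to 120% (Gata2) for the others. Hdc made up 36.1% of the summed CPM of the 7 genes in replicate 1, 81.6% in replicate 2 and 83.0% in replicate 3. Per Mcpt8, Hdc was at 2.13 in replicate 1 and at 17.2 and 18 in replicates 2 and 3 (ratios of CPM).

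**Figure D2:**
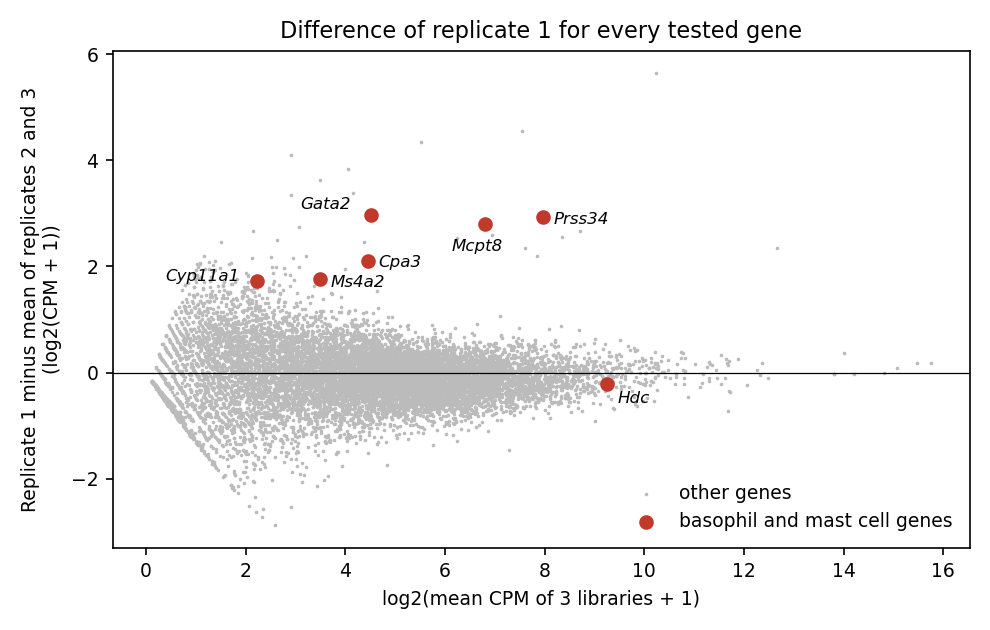
Each point is 1 of the 11123 tested genes, with its log2(mean CPM + 1) on the x axis and the difference of replicate 1 from the mean of replicates 2 and 3 on the log2(CPM + 1) scale on the y axis. Prss34, Mcpt8, Gata2, Cpa3, Ms4a2 and Cyp11a1 lie between 1.72 and 2.96, and Hdc lies at -0.22. The median of all tested genes is -0.07.

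Levels of different genes can be compared only per length, so CPM was divided by the exon length of each gene in kb. In replicate 1 the order was Prss34 (488 CPM per kb), Mcpt8 (259), Hdc (86.3), Cpa3 (28.8), Gata2 (9.57), Ms4a2 (7.25) and Cyp11a1 (1.58 CPM per kb). In replicates 2 and 3 Hdc came first, at 95.3 and 106 CPM per kb, ahead of Prss34 at 61.1 and 66.6 and Mcpt8 at 35.5 and 37.5. Per kb, Hdc was below Mcpt8 in replicate 1 (a ratio of 0.333) and above it in replicates 2 and 3 (2.68 and 2.82). Neighbours in this order whose exact 95% intervals overlapped were Gata2 and Ms4a2 in replicates 1 and 2, where they lay at 9.57 and 7.25 and at 1.98 and 1.82 CPM per kb. In replicate 3 Ms4a2 (1.92 CPM per kb) stood above Gata2 (0.537). Over the libraries the means per kb were 205 ± 245 for Prss34, 111 ± 129 for Mcpt8 and 95.8 ± 9.66 for Hdc (SD, n = 3). Cpa3 was at 13.75 ± 13.04, Gata2 at 4.03 ± 4.85, Ms4a2 at 3.66 ± 3.10 and Cyp11a1 at 0.765 ± 0.722 CPM per kb (SD, n = 3). These SDs are mostly the distance of replicate 1, which the 6 genes share, so the order was read within each library. Prss34 exceeded Mcpt8 per kb in every library, by 1.88-fold, 1.72-fold and 1.78-fold in replicates 1, 2 and 3. Cpa3 lay above Gata2 and Ms4a2, and Cyp11a1 below both, in every library.

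Against a fixed level of 10 CPM, 4 of the 7 genes lay above, 1 lay below and 2 passed in neither direction (threshold 0.05 on limma's adjusted p). Of all 11123 genes tested, 58.8% were above and 28.3% below, so the share of members above is near that of all genes. Hdc lay 5.80 above that level on the log2 scale (SE 0.10, limma adjusted p = 1.23e-22), Prss34 3.81 (SE 0.32, limma adjusted p = 2.12e-10), Mcpt8 2.70 (SE 0.31, limma adjusted p = 5.68e-08) and Cpa3 0.62 (SE 0.29, limma adjusted p = 0.0477). Cyp11a1 was below (-1.50, SE 0.34, limma adjusted p = 0.000323), and Ms4a2 (-0.22, limma adjusted p = 0.471) and Gata2 (0.28, limma adjusted p = 0.498) were not called.

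The calls of the proteases rested on a spread lent by other genes. limma pulled each gene's SD over the libraries toward that of genes at a like level, from 1.69 to 0.55 (log2) for Prss34, from 1.62 to 0.54 for Mcpt8 and from 1.22 to 0.50 for Cpa3, whereas Hdc went from 0.15 to 0.18. With robust moderation, which lends genes of large spread less and was added after seeing the data, 1 member was above, Hdc. The limma adjusted p was then 0.0528 for Prss34, 0.0931 for Mcpt8 and 0.386 for Cpa3. Without a mean trend in the lent spread, also added after seeing the data, 3 members were above, with limma adjusted p of 0.000933 for Prss34, 0.0039 for Mcpt8 and 0.214 for Cpa3. Cpa3 also lost its call with TMM scaling, DESeq2 size factors and no filter on low values, which each left 3 members above.

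Replicate 1 set much of the levels. Without it, Prss34 lay 2.84 above 10 CPM on the log2 scale, Mcpt8 1.77 and Hdc 5.87, while Cpa3 was at -0.08, Ms4a2 at -0.81, Gata2 at -0.70 and Cyp11a1 at -2.08. Without replicate 3, Gata2 was at 1.17. No p-value is given for pairs of libraries, since there the fit took the spread of each gene wholly from the others. In edgeR on recovered reads 5 members were above, Gata2 included (adjusted p = 0.0265).

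Further genes of basophil and mast cell function were taken from 7 lists holding 117 genes, of which 85 were listed in the tables, the 7 members included. Among the 78 other genes, 49 (62.8%) were above 10 CPM and 20 below (limma, adjusted p under 0.05). Of all tested genes 58.8% were above and 28.3% below, so the share above is near that of all genes. The counts against 10 CPM in each list below stand beside these same shares, and nothing is read from them. In these 78 the median difference of replicate 1 from the other libraries was -0.01 on the log2(CPM + 1) scale, against -0.07 over all tested genes, and 6 (7.69%) were at least 2-fold higher in replicate 1, where 3.42% of all tested genes were. Of the 56 with 10 CPM or more in replicate 1, 5 (8.93%) were, against 0.9% of all such genes. The 6 were Cd200r3, Itga2b, Ccl3, Ccl4, Ptgs2 and Irf8. The 10 CPM filter used replicate 1 alone, and Cd200r3, Itga2b, Ccl3 and Ptgs2 lay below 10 CPM in both other libraries. The lists were also drawn up with earlier results on these libraries known, so nothing is read from these shares.

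**Figure D3:**
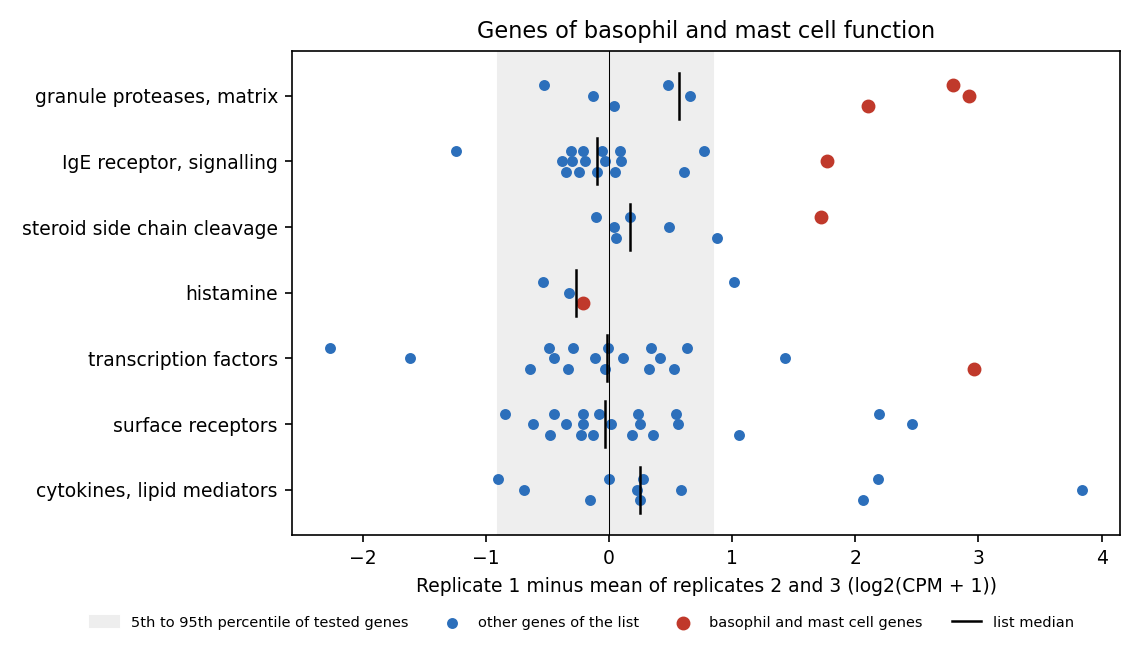
Difference of replicate 1 from the mean of replicates 2 and 3 (log2(CPM + 1)) for each listed gene of the 7 function lists, with black lines for list medians and a grey band for the 5th to 95th percentile of tested genes (-0.90 to 0.84). Red points are the 7 members. Most blue points lie in the band, and those beyond 2 to the right are Itga2b, Cd200r3, Ptgs2, Ccl4 and Ccl3.

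Of the granule list, the members were the only genes at least 2-fold higher in replicate 1. Of 19 granule genes, 8 were listed and 7 of those were above 10 CPM. Srgn, the proteoglycan core of many granules, was at 320.2, 286 and 339 CPM in replicates 1, 2 and 3. Ctsg, the cathepsin G protease of neutrophil and some mast cell granules, was at 232, 145 and 148 CPM, and Prss57, a neutrophil serine protease, at 109, 82.3 and 73.0 CPM. Both were highest in replicate 1 but by less than 2-fold. Ndst2, which sulphates heparin, was at 20.8, 19.6 and 26.7 CPM and Ctsc, which activates granule proteases, at 8.16, 12.2 and 12.1 CPM. The mast cell proteases Cma1, Mcpt4, Tpsab1 and Tpsb2 were among 11 genes of the list that had no entry and were not analysed here.

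The IgE receptor signalling list did not follow Ms4a2. Of 17 listed genes, 12 were above 10 CPM and 4 below, and the list's median difference of replicate 1 was -0.10. Fcer1g, the gamma chain that the IgE receptor shares with Fc gamma receptors, was at 775, 754 and 698 CPM in replicates 1, 2 and 3. Per kb it exceeded Ms4a2 by 122-fold in replicate 1 and by 473-fold and 416-fold in replicates 2 and 3. The kinase gene Syk was at 450.1, 540 and 614 CPM, the phospholipase gene Plcg2 at 436, 488 and 546 CPM and Rasgrp4, a Ras activator of mast cells and neutrophils, at 418, 488 and 474 CPM, each lowest in replicate 1. Fyn, a Src family kinase, was below 10 CPM (5.24, 1.94 and 4.73 CPM), as was the adaptor Grap2 (0, 0.847 and 2.02 CPM), whose 0 reads in replicate 1 allow up to 0.583 CPM. Fcer1a, the chain that binds IgE, had no entry and was not analysed here.

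Of the genes that work with Hdc, 4 of 8 were listed including Hdc, and none was at least 2-fold higher in replicate 1. Hrh2, a histamine receptor, was at 42.3, 57.9 and 66.1 CPM and, like Hdc, lowest in replicate 1. Hnmt, which inactivates histamine, was at 12.6, 12.6 and 20.4 CPM, and Slc22a3, a transporter that takes up histamine, was below 10 CPM at 3.30, 0.299 and 2.50 CPM. The partners of Cyp11a1 were likewise not raised 2-fold over both other libraries. Fdxr, the reductase that feeds it electrons, was at 14.0, 9.46 and 9.97 CPM. Fdx1, its electron carrier, was below 10 CPM at 2.72, 1.67 and 0.532 CPM (14, 67 and 20 reads). The libraries had the same order for Fdx1 as for Cyp11a1, but Fdx1 rested on 14 reads in replicate 1 and its order was not tested. The cholesterol carriers Stard3 (54.6, 43.5 and 53.7 CPM) and Stard4 (20.2, 18.5 and 20.9 CPM) and Tspo of the outer mitochondrial membrane (193, 201 and 172 CPM) were above 10 CPM, and Hsd17b1 was below (3.11, 3.01 and 3.88 CPM). Star had no entry and was not analysed here.

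Among 18 transcription factors, all listed, 10 were above 10 CPM and 5 below, and Gata2 and Irf8 were at least 2-fold higher in replicate 1. Irf8, a factor of monocyte, dendritic and basophil progenitors, was at 24.9, 10.01 and 7.39 CPM. Ikzf1 (276, 375 and 401 CPM), Lmo4 (296, 286 and 321 CPM), Stat5b (149, 131 and 172 CPM) and Myb (111, 79.0 and 99.2 CPM) differed by less than 2-fold. Ikzf2 was at 3.50, 1.27 and 2.71 CPM and Hes1 at 0, 0.174 and 1.06 CPM, both below 10 CPM. Gata1, Tal1 and Hes1 were at least 2-fold lower in replicate 1, opposite to Gata2, where 5.57% of all tested genes were. Gata1 and Tal1 were named after their values were seen. The 0 reads of Hes1 in replicate 1 allow up to 0.583 CPM, which is above its level in replicate 2. Gata1, the factor of erythroid, megakaryocyte and mast cells, had 0 reads in replicate 1 (up to 0.583 CPM) and lay at 4.71 and 3.06 CPM in the others, and Tal1 was at 2.14, 7.65 and 9.76 CPM.

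In the receptor list of 20 listed genes, 12 were above 10 CPM, 5 below, and 2 were at least 2-fold higher in replicate 1. Cd200r3, an activating receptor of basophils and mast cells, was at 18.3, 2.64 and 3.88 CPM. Itga2b, the CD41 integrin of platelets that basophils also carry, was at 44.9, 7.32 and 7.31 CPM. The abundant receptors did not share this pattern: Cd9 was at 401, 434 and 444 CPM, Cd63, which appears on activated basophils, at 400.4, 347 and 325 CPM, and the cytokine receptor genes Csf2ra and Csf2rb at 318, 376 and 369 CPM and at 199, 269 and 348 CPM. C3ar1 (1.17, 2.07 and 0.718 CPM) and Cd200r4 (2.52, 0 and 1.89 CPM) were below 10 CPM.

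Of 11 listed cytokine and lipid mediator genes, 6 were above 10 CPM and 3 below. The chemokine gene Ccl3 was at 42.1, 3.96 and 0.824 CPM, Ccl4 at 5.44, 1.37 and 0 CPM and Ptgs2, an inducible prostaglandin synthase, at 10.9, 1.69 and 1.54 CPM, all at least 2-fold higher in replicate 1. Alox5ap (997, 877 and 827 CPM), Alox5 (590, 668 and 644 CPM), Ptgs1 (114, 102 and 127 CPM) and Osm (77.3, 59.5 and 44.1 CPM) were not, and Hpgds was below 10 CPM (1.36, 1.05 and 0.931 CPM). Il4 and Il13, cytokines of activated basophils, had no entry and were not analysed here.

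Among all genes at 10 CPM or more in replicate 1, those whose profile lay nearest to the mean of Mcpt8, Prss34 and Cpa3 included both Itga2b (distance 0.149) and Cd200r3 (0.399). Likeness was the Euclidean distance of log2(CPM + 1) values centred on each gene's mean over the 3 libraries. The nearest was Kcnq1ot1 (0.131), a nuclear non-coding RNA, and the remaining 7 were Malat1 (0.297), Ptgs2 (0.378), Dph7 (0.518), Rpf2 (0.562), Hist1h1e (0.604), Ptprs (0.656) and Gm21738 (0.720). Ms4a2 lay at 0.683 by this measure, Cyp11a1 at 1.01, Gata2 at 1.25 and Hdc at 2.31. With 3 libraries this measure mostly tells how far replicate 1 stands from the others. The genes it starts from were chosen with that difference known, and the 10 CPM filter used replicate 1 alone.

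Markers of other cell types were set beside the members, since the sorted cells could hold several types. All 10 listed eosinophil markers were lowest in replicate 1, opposite to the 6 members, with a summed level of 639 CPM there against 1101 and 1511 CPM in replicates 2 and 3. Prg2, the gene of the granules' major basic protein, was at 316, 494 and 722 CPM and Epx, the eosinophil peroxidase gene, at 66.4, 122 and 275 CPM. Of the 10, 3 (Prg3, Ear1 and Ear6) were at least 2-fold lower in replicate 1, where 5.57% of all tested genes were. Erythroid markers (11 of 12 listed) summed to 1087, 616 and 606 CPM in replicates 1, 2 and 3, with 0 of 11 at least 2-fold higher in replicate 1. Primary granule markers (9 of 10 listed) were all highest in replicate 1, summing to 8886, 6847 and 7463 CPM, again with 0 raised 2-fold. The shares of all tested genes that were merely highest or lowest in replicate 1 were not counted, so nothing is read from those counts of markers.

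Of the megakaryocyte markers, 4 of 5 were, like the 6 members, highest in replicate 1. Itga2b, Pf4 and Vwf were at least 2-fold higher in replicate 1, and the list's median difference of 1.67 on the log2(CPM + 1) scale was the highest of the 9 marker lists. That median is the value of Vwf, at 4.85, 0.299 and 1.60 CPM (25, 12 and 60 reads). Highest in replicate 1 were also 6 of 7 stem and progenitor, 8 of 11 erythroid and 7 of 10 lymphoid markers. So were 8 of 15 macrophage, 4 of 13 late neutrophil and 3 of 10 monocyte markers. The share of all tested genes highest in replicate 1 was not counted, so nothing is read from how many markers were highest there. The megakaryocyte list summed to 141, 111 and 126 CPM, most of it from Itgb3 (81.9, 99.1 and 116 CPM). The other 4 summed to 58.6, 11.9 and 10.7 CPM, most of it from Itga2b, which the receptor list also holds, and Pf4 was at 3.11 CPM in replicate 1 with 0 reads in the others. Stem and progenitor markers (7 of 8 listed) summed to 106, 82.4 and 84.7 CPM, with Meis1 at least 2-fold higher in replicate 1. Late neutrophil markers, all 13 listed, summed to 229200, 231200 and 193900 CPM. Macrophage markers, all 15 listed, summed to 284, 259 and 277 CPM, with Siglec1 at least 2-fold lower and Fcgr1 at least 2-fold higher in replicate 1. Monocyte markers, all 10 listed, summed to 1187, 1071 and 966 CPM. Of these 2 lists, Marco, Cx3cr1, Vcan and Ace were at 0 in replicate 1, where 0 reads allow up to 0.583 CPM. Vcan was also at 0 in replicates 2 and 3, and Marco and Cx3cr1 were also at 0 in replicate 3. Lymphoid markers (10 of 13 listed) summed to 348, 279 and 337 CPM with Cd4 at 0 in replicate 1. The part of these other cells in the members' levels was not tested.

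**Figure D4:**
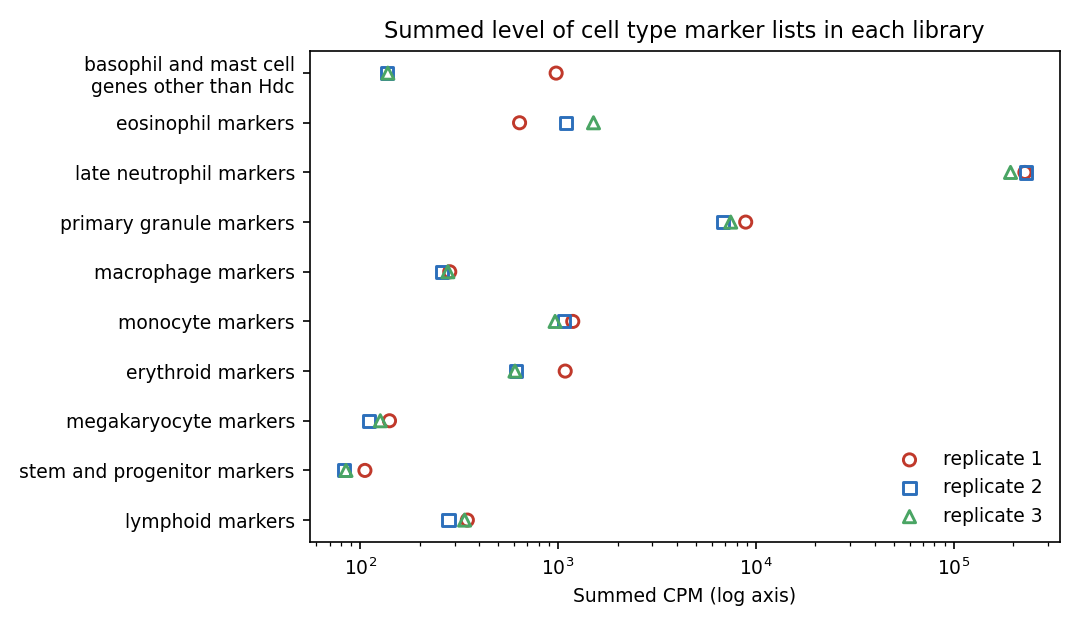
Summed CPM (log axis) of the 6 members other than Hdc and of 9 cell type marker lists in replicates 1, 2 and 3. The 6 members sum to 978 CPM in replicate 1 and to 137 and 138 CPM in replicates 2 and 3. The eosinophil list lies lowest in replicate 1.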

How the data were processed

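Messenger RNA was sequenced in 3 libraries of 1 sorted population, with RNA isolated in Trizol and libraries made with a NEXTflex kit, per the labels' protocols. The authors deposited CPM per gene and library. FastQC, STAR, featureCounts and edgeR, with builds mm10 and GRCh38, are named in the submitters' processing notes; the sources used here give no version, annotation, strand setting, gene filter or role of each build. Each table had 11463 lines, and 44 lines that repeat a gene were dropped. CPM then summed to 1000000, and 100% of values in each library were whole multiples of 1 read (tolerance 0.01 reads), which gave the read totals. A count of 0 allows 3 reads, or 0.583, 0.0747 and 0.0798 CPM in replicates 1, 2 and 3. Both the limits and the intervals reflect counting error alone, because no molecular identifiers separate PCR copies from molecules.

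limma 3.58.1 (R 4.3.3) tested log2(CPM + 1), with a pseudocount of 1, against 10 CPM in all genes with at least 10 reads over the libraries, two-sided, with trended moderation and Benjamini-Hochberg adjustment at 0.05. Folds between libraries had no test. On the log2(CPM + 1) scale the change of low genes is understated. Alternatives were edgeR 4.0.16 on recovered reads (quasi-likelihood F from the deviance with the intercept at 0; 6660 genes above and 2787 below 10 CPM), TMM and DESeq2 1.42.0 scaling, a pseudocount of 0.1, no filter, levels of 5 and 20 CPM, folds of 1.5 and 4, leaving out each library and, added after seeing the data, moderation that is robust or has no mean trend. Exon lengths and gene coordinates came from GENCODE M21 (GRCm38, the assembly of mm10). The members, gene lists, tests and naming rule were chosen with earlier results of these data known. In each function list, up to 4 highest and 2 lowest non-members by mean CPM were named, with those at least 2-fold higher in replicate 1 and at 10 CPM or more there, and the 10 genes most like Mcpt8, Prss34 and Cpa3.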

Additional observations from a re-analysis of the deposited data

How the results depend on the processing

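The count of 6 members at least 2-fold higher in replicate 1 was also 6 under TMM or DESeq2 scaling, without replicate 2 or replicate 3 and at 1.5-fold, and it was 4 at 4-fold. Over all genes the count of 380 became 811 at 1.5-fold and 105 at 4-fold, and ranged from 772 to 903 with 1 of replicates 2 and 3 left out. At a level of 5 CPM, 1870 genes, 0 members and 12 function list genes were below, against 3153, 1 and 21 at 10 CPM, and at 20 CPM 2 members were below. With robust moderation 1 member was above 10 CPM, against 4. Counts of members passing with a replicate left out are not given, since those fits took the spread of each gene wholly from other genes. With 1 replicate left out, log2 levels over 10 CPM ranged from -0.813 to 0.089 for Ms4a2, from -0.079 to 1.018 for Cpa3 and from -0.705 to 1.173 for Gata2. Lowest values were without replicate 1. Highest values were without replicate 2 for Ms4a2 and Cpa3 and without replicate 3 for Gata2; Ms4a2 was at 0.058 without replicate 3. At 5 CPM Ms4a2 was at 0.653, and at 20 CPM Cpa3 was at -0.311 and Gata2 at -0.65, since the reference level itself moved. The call of Cpa3 above 10 CPM was lost with TMM (limma adjusted p = 0.0759), DESeq2 size factors (0.0836) and no filter (0.326). Scaling moved the median difference of all tested genes from -0.07 to -0.01 (TMM) and 0.01 (DESeq2 size factors). At 10 CPM a gene rests on few reads in replicate 1, and Cyp11a1 had 39 reads there. No paired analysis was possible because the design has 1 group.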
